A study of Mus musculus with 20 samples.

Results

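The transcripts of 61 genes that encode cytosolic translation initiation factors (50 genes with symbols starting in Eif) and elongation factors and the enzymes that modify them (11 genes starting in Eef) were followed in Taz-KD and WT mice. They were chosen by name as the protein-coding genes, among 21637 protein-coding genes and 46649 genes of any type in both count tables, whose GENCODE symbol on the mouse genome build GRCm38 has Eif or Eef followed by a digit. The eIF2 kinases Eif2ak1, Eif2ak2, Eif2ak3 and Eif2ak4, the inhibitor Eif4ebp1 and the tRNA synthetase partner Eef1e1 were set aside and are used only for comparison, and Eef1akmt4 was not analysed here. Hearts came from 5 Taz-KD and 5 WT mice and femur muscles from 5 Taz-KD and 5 WT mice, with 1 library per mouse in each tissue. Heart and muscle libraries share no code, and the labels do not say whether any mouse gave both tissues. Taz-KD mice carried the ROSA26H1/tetO-shRNA:TAZ transgene, from which doxycycline switches on a hairpin RNA against Taz, the gene of the cardiolipin transacylase tafazzin, throughout the body. WT mice were C57BL/6N. Both genotypes ate chow with 625 mg/kg doxycycline, and all were studied at 20 weeks of age.

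Translation of most mRNAs starts when eIF4F, made of the cap binding protein eIF4E, a scaffold and a helicase, recruits a small ribosomal subunit that carries eIF1, eIF1A, eIF3, eIF5 and eIF2 with the initiator tRNA. eIF2 is recharged with GTP by eIF2B, and stress kinases that phosphorylate the alpha subunit of eIF2 block this step, which lowers overall translation and favours the mRNA of the transcription factor ATF4. During elongation, eEF1A delivers each aminoacyl tRNA and eEF2 moves the ribosome along. Adult cardiac and skeletal muscle are known for replacing the general eEF1A1 with its close copy eEF1A2.

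Levels are given as CPM (counts scaled to library size within each tissue), and a gene was called when its Benjamini-Hochberg adjusted p over all genes of the comparison lay under 0.05 in edgeR's quasi-likelihood test. Library totals ran from 30248445 to 35301909 counts in Taz-KD hearts, 26963288 to 30090918 in WT hearts, 46985694 to 74361382 in Taz-KD muscles and 36429399 to 61100247 in WT muscles. Taz was reduced in every knockdown library, with 11.02 to 12.9 CPM in Taz-KD hearts against 36.0 to 39.2 CPM in WT hearts and 12.7 to 15.2 CPM in Taz-KD muscles against 45.9 to 54.8 CPM in WT muscles (exact two-sided permutation test, p = 0.00794 in each tissue, the smallest that 5 against 5 libraries allow). The WT muscles A33 and A55 stood apart from the other muscles: summed adipocyte markers reached 1170 CPM in A33 and 342 CPM in A55, against 2.89 to 79.8 CPM in Taz-KD muscles and up to 216 CPM in the other WT muscles. The Y-linked Eif2s3y was at 0 or 0.251 CPM in 3 Taz-KD and 3 WT hearts and at 31.2 to 52.6 CPM in the other hearts, while every muscle library had 36.5 to 74.8 CPM. Xist, a gene of female cells, was at 830 to 1085 CPM in the hearts low in Eif2s3y. It was at 0.773 to 5.35 CPM in the other hearts and at most 0.179 CPM in the muscles. By these genes the hearts were of both sexes and the muscles all male, although the labels give no sex. In these bulk tissues, a change in the share of a cell type and a change in RNA per cell cannot be told apart.

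In Taz-KD hearts, transcripts of most initiation and elongation factors rose, while no eIF4E binding inhibitor and no eEF methyltransferase among the members passed the test. The inhibitor Eif4ebp1, set aside from the members, was higher (log2 fold change 1.17, adjusted p = 1.90e-06, edgeR). Of the 58 members with enough counts, 37 were higher, 1 was lower and 20 did not pass the test, whereas 14.4% of all 19486 tested genes were called higher and 10.3% lower. The median log2 fold change was 0.38 for the members and -0.02 for all tested genes. In 34 of the 58 members the lowest Taz-KD heart exceeded the highest WT heart, compared with 11.3% of all genes. The members together summed to 10693 to 11571 CPM in Taz-KD hearts and 6989 to 7493 CPM in WT hearts. Without Eef1a1, the most abundant member in Taz-KD hearts, the sums were still 8709 to 9578 CPM in Taz-KD and 6381 to 7059 CPM in WT hearts. Most increases were small. Only 3 of the 37 exceeded 2-fold, 6 lay between 1.51-fold and 1.81-fold, and 28 lay between 1.13-fold and 1.49-fold. Without the 3 hearts with the most smooth muscle or adipocyte RNA (R1793, R1797 and R3) 32 members were called, all of them among the 38.

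**Figure D1:**
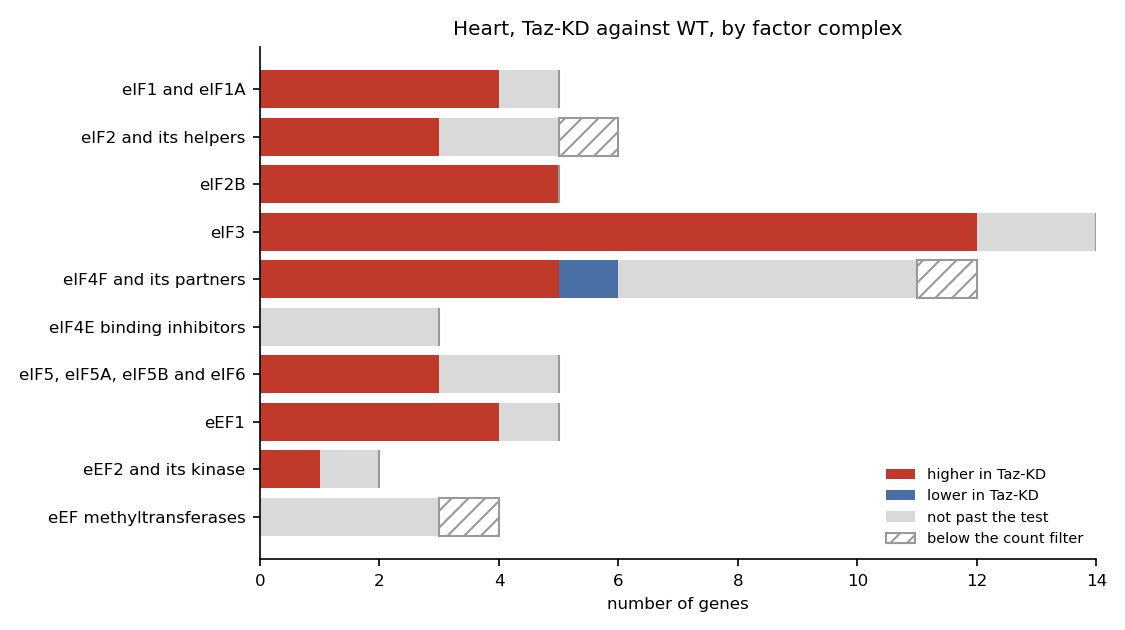
Number of genes per factor complex (x axis) that were higher, lower or not past the test in Taz-KD against WT hearts (edgeR, adjusted p under 0.05, n = 5 each), with hatched bars for genes below the count filter. All 5 genes of eIF2B and 12 of 14 of eIF3 were higher, and the single lower gene, Eif4e, belongs to eIF4F.

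In femur muscle no member passed the test. Of the 59 members tested, 0 were called in edgeR, and 4 had an unadjusted p under 0.05 (6.78%, against 14.9% of all tested genes). Calls were scarce among all 16145 genes too (0.0124% higher and 0.00619% lower), so that the lowest adjusted p of any member was 0.311. Taz-KD muscles lay entirely above WT muscles for 2 members (Eif3c and Eif4e2), against 1.06% of all tested genes. The 95% intervals included no change for 55 of the 59 members, stayed within 2-fold either way for 57 and reached past 1.5-fold for 15. The median log2 fold change of the members was 0.14, and it was 0.04 without the WT muscles A33 and A55. With DESeq2, or with one edgeR fit of all 20 libraries, 1 member, Eif3c, was called higher in muscle.

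**Figure D2:**
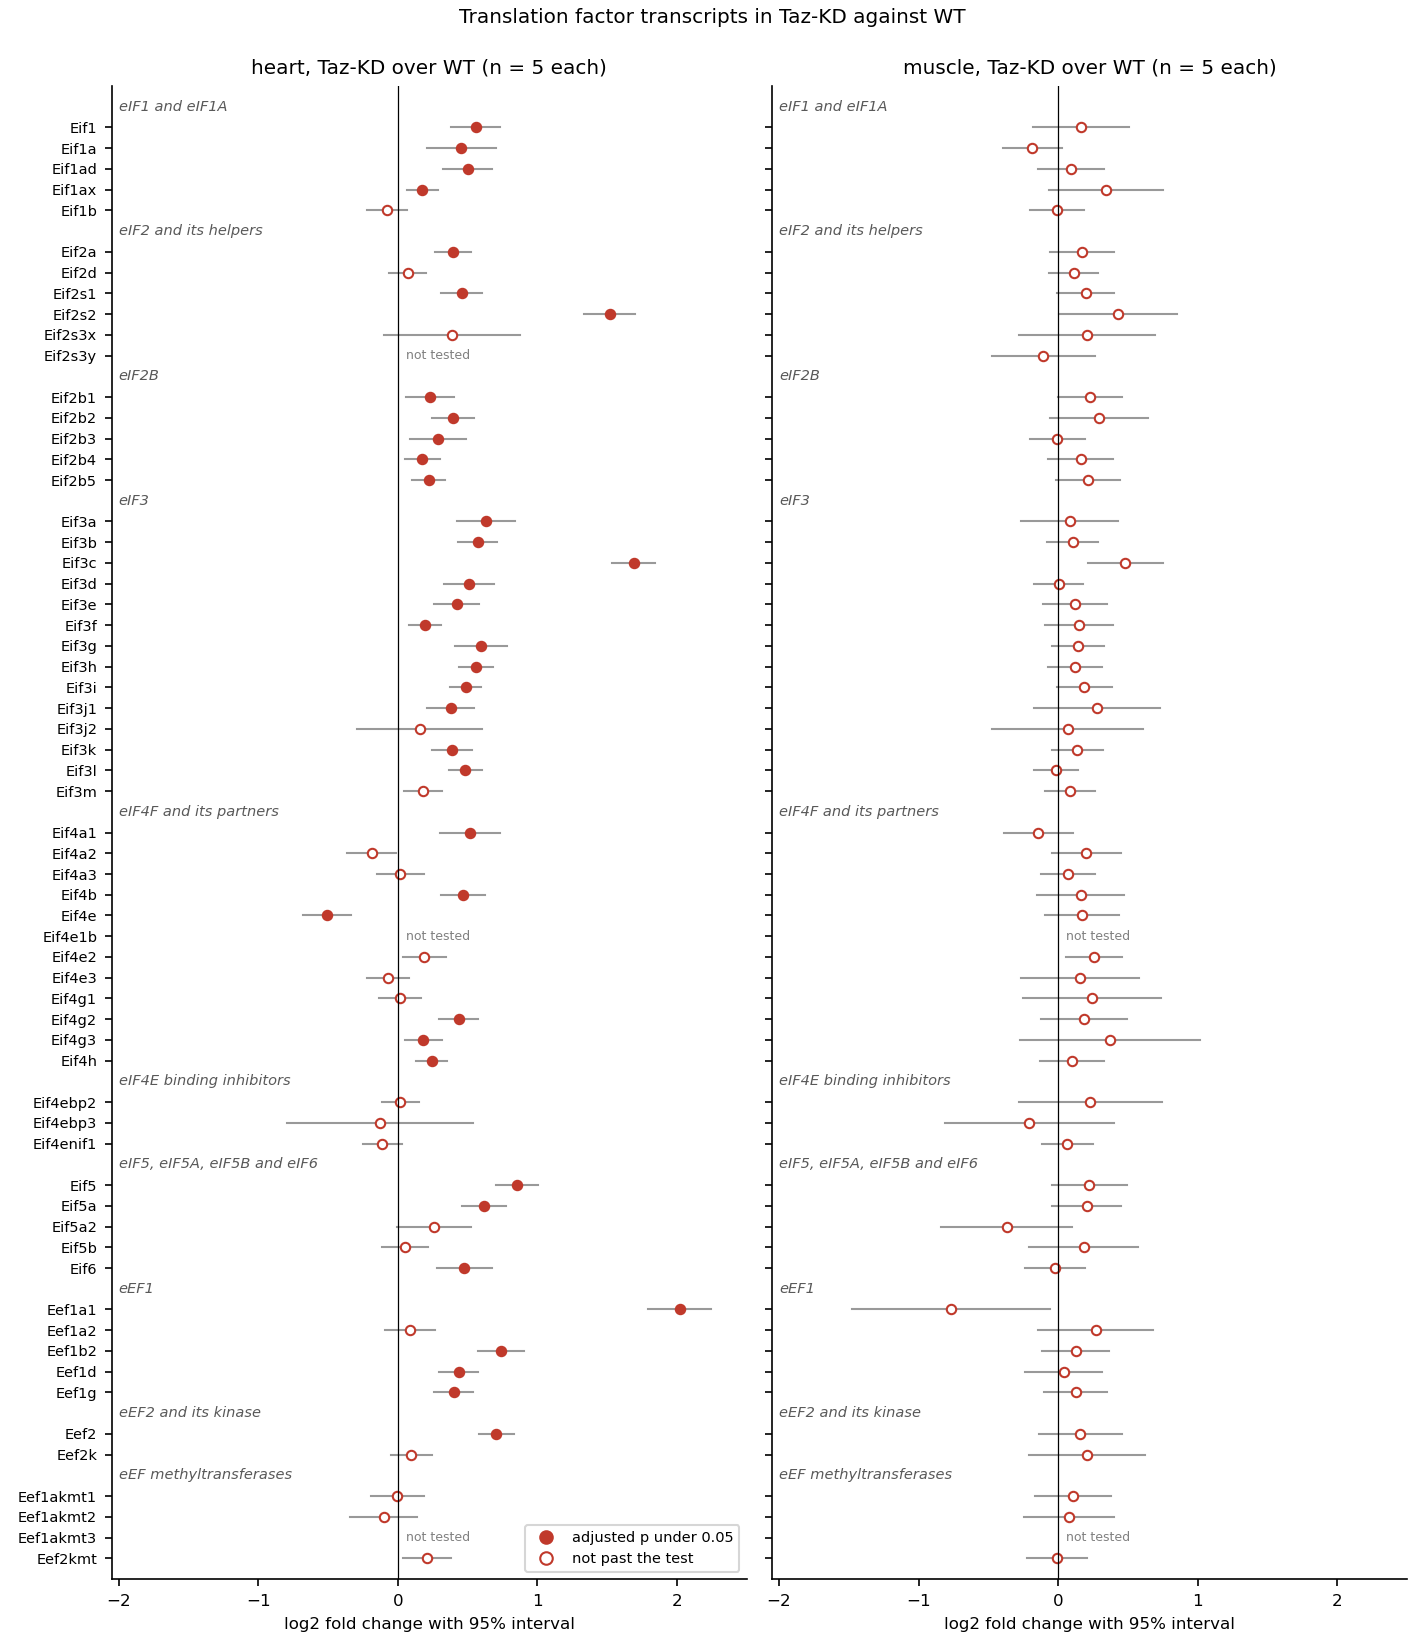
Log2 fold change of each member in Taz-KD over WT (x axis, points) with its 95% interval (bars), in hearts on the left and femur muscles on the right (n = 5 each, edgeR), grouped by complex, with filled points past the test. In hearts Eef1a1 (2.02), Eif3c (1.69) and Eif2s2 (1.52) stand far to the right and Eif4e (-0.51) to the left, whereas no muscle point is filled.

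A direct test of whether the knockdown effect differed between the tissues called 10 members, 9 with a more positive effect in heart and 1, Eif4e, with a more negative one. Among all 20612 genes, 3.07% and 1.55% were called in these directions. All 10 were also called in hearts with the same sign. The 9 were Eef1a1, Eif3c, Eif3l, Eif2s2, Eef1b2, Eif4a1, Eif1a, Eif3d and Eif5. The count depended on the libraries and the scaling: it was 18 without the muscles A33 and A55, where Eif4a1 no longer passed, and 24 with library sizes in place of scaling factors, and leaving out the Taz-KD heart R2 left 5. Of the 10, Eif5 lost its call in 14 of 29 other analyses, Eif3d in 12, Eif4a1 in 6, Eif1a in 5 and Eef1b2 in 1, and the other 5 in none. This test scaled all 20 libraries together, whereas the CPM given here were scaled within each tissue. Heart and muscle libraries share no replicate code. By Eif2s3y and Xist the hearts were of both sexes and the muscles all male. Sex was not in the fit, and its part in the difference between the tissues was not tested.

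Among the transcripts of the eIF2 subunits tested in hearts, that of Eif2s2 rose most. Eif2s2 encodes the beta subunit, which contacts eIF5 and eIF2B. Its level was 104, 116, 99.2, 132 and 127 CPM in the Taz-KD hearts, against 39.8, 40.1, 41.7, 43.8 and 36.5 CPM in the WT hearts. The lowest Taz-KD heart exceeded the highest WT heart by more than any spread within a genotype. The rise was 2.86-fold, or 1.52 on the log2 scale (95% interval 1.33 to 1.70, adjusted p = 1.27e-07, edgeR). In muscle, Eif2s2 measured 195, 230, 193, 192 and 172 CPM in Taz-KD and 115, 150, 176, 92.8 and 195 CPM in WT, and the genotypes overlapped (log2 fold change 0.43, adjusted p = 0.334, edgeR). The heart effect was larger by 1.03 ± 0.24 (log2 units, standard error; adjusted p = 0.0170, edgeR).

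Eif2s1, the alpha subunit whose phosphorylation marks the stress response, rose less. It reached 43.2, 44.7, 41.5, 46.7 and 48.9 CPM in Taz-KD hearts, against 34.6, 32.7, 33.7, 34.1 and 28.6 CPM in WT hearts, without overlap (log2 fold change 0.46, 95% interval 0.31 to 0.61, adjusted p = 0.000393, edgeR). Per kilobase of exon, Eif2s2 made up 65.2% ± 1.54 of the summed alpha and beta transcripts in Taz-KD hearts and 47.5% ± 1.08 in WT hearts (SD, n = 5 each), and the genotypes did not overlap (63.7% to 67.4% in Taz-KD, 45.8% to 48.5% in WT).

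The gamma subunit, which binds GTP and the initiator tRNA, has copies on both sex chromosomes. Eif2s3x measured 112, 65.6, 103, 107 and 64.7 CPM in Taz-KD hearts and 82.2, 81.7, 51.3, 81.6 and 48.3 CPM in WT hearts, and did not pass the test (log2 fold change 0.39, 95% interval -0.10 to 0.88, adjusted p = 0.238, edgeR). The 4 low libraries were the hearts R1796 and R2 in Taz-KD and R1795 and R3 in WT, the same ones that had Eif2s3y. Eif2s3y was below the count filter in hearts and was not tested there. Added per kilobase of exon, the X and Y copies came to 29.4, 29.3, 26.98, 28.1 and 29.6 CPM per kb in Taz-KD hearts and to 21.6, 21.4, 24.7, 21.4 and 20.2 CPM per kb in WT hearts. The sums of the genotypes did not overlap, although the levels of Eif2s3x alone did. Among the hearts low in Eif2s3y, Eif2s3x was at 103 to 112 CPM in Taz-KD and 81.6 to 82.2 CPM in WT. Among the hearts that had Eif2s3y, it was at 64.7 and 65.6 CPM in Taz-KD and at 48.3 and 51.3 CPM in WT. Sex was not in the fit. In muscle, where all libraries had both copies, the sums overlapped (22.2 to 30.1 CPM per kb in Taz-KD, 22.0 to 28.0 CPM per kb in WT).

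**Figure D3:**
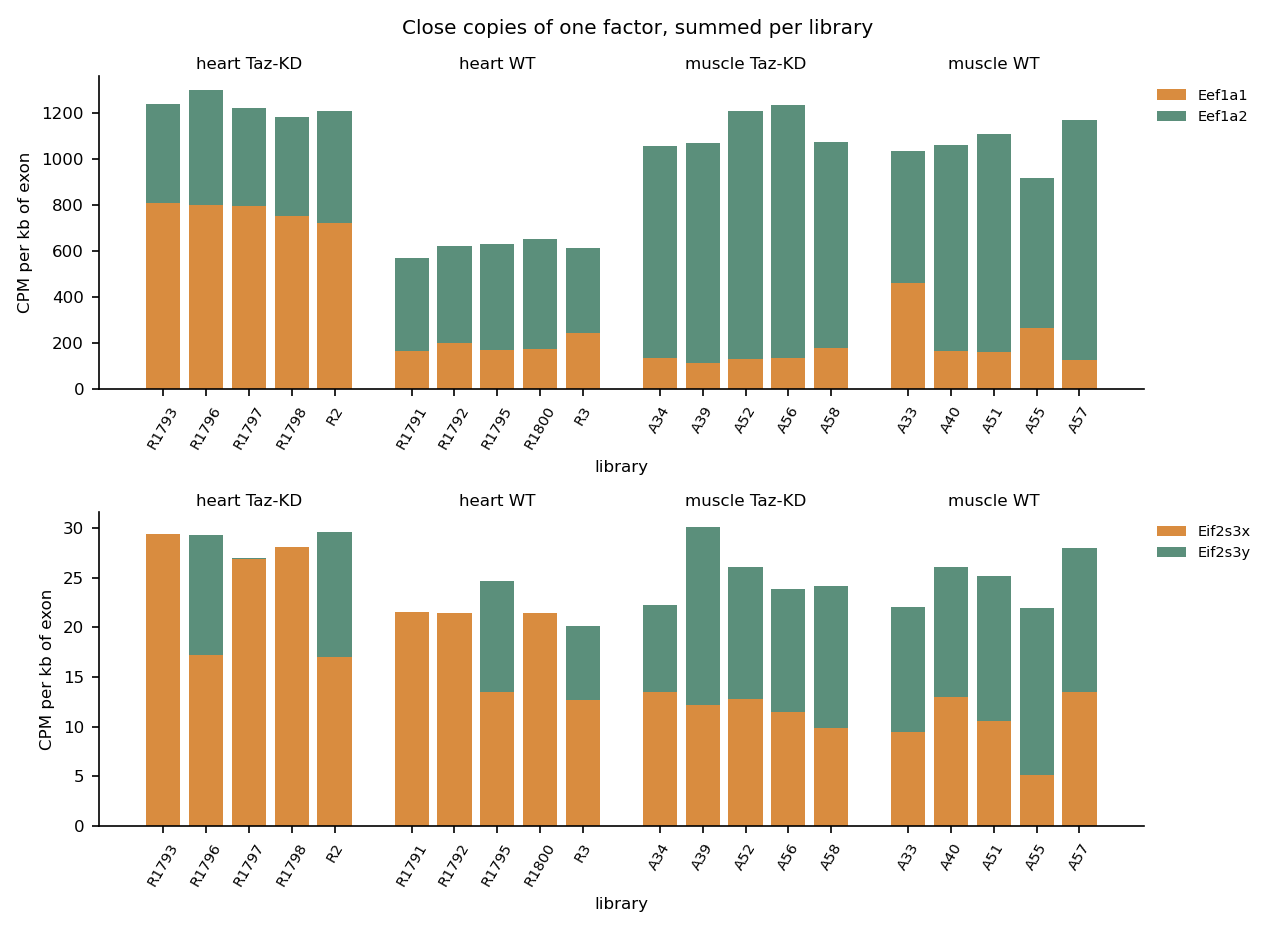
Level in CPM per kb of exon (y axis) of 2 pairs of close copies in each library (x axis), stacked as Eef1a1 with Eef1a2 above and Eif2s3x with Eif2s3y below, with Taz-KD left of WT in each tissue. In hearts the Eef1a pair sums to 1182 to 1297 CPM per kb in Taz-KD and 571 to 652 CPM per kb in WT, and the Eif2s3 pair to 26.98 to 29.6 CPM per kb in Taz-KD and 20.2 to 24.7 CPM per kb in WT.

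Among the factors that can bring tRNA to the ribosome apart from eIF2, Eif2a rose in hearts (45.6 ± 2.60 CPM in Taz-KD, 34.7 ± 1.89 CPM in WT, SD, n = 5 each; log2 fold change 0.40, adjusted p = 0.000467, edgeR). Eif2d, which also acts in ribosome recycling, did not pass the test (28.4 ± 1.79 CPM in Taz-KD, 27.1 ± 1.23 CPM in WT; 95% interval of the log2 fold change -0.06 to 0.20).

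All 5 subunits of eIF2B, the exchange factor of eIF2, were called higher in hearts, and all by small amounts. Eif2b2, a regulatory subunit, was at 15.5, 16.5, 15.6, 15.1 and 14.1 CPM in Taz-KD hearts and at 11.4, 11.6, 12.1, 12.5 and 10.7 CPM in WT hearts, with no overlap (log2 fold change 0.40, adjusted p = 0.00142, edgeR). The catalytic subunit Eif2b5 was at 45.3 to 49.0 CPM in Taz-KD hearts and 37.2 to 43.6 CPM in WT hearts (log2 fold change 0.22, adjusted p = 0.0109, edgeR). These were the only subunits without overlap. Eif2b1, Eif2b3 and Eif2b4 had log2 fold changes of 0.23, 0.29 and 0.18 (adjusted p = 0.0475, 0.0393 and 0.0452, edgeR) and lost the call in 17, 13 and 16 of the 21 other analyses. In the fit of all 20 libraries none of the 5 subunits passed. In muscle, their adjusted p ranged from 0.337 to 0.980.

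eIF3, the largest initiation factor, coats the small subunit and holds the other factors in place. Of its 14 genes 12 rose in hearts, and 1 far more than the rest. Eif3c, a subunit of the conserved core, measured 339, 408, 344, 391 and 411 CPM in Taz-KD hearts, against 126, 118, 116, 116 and 111 CPM in WT hearts. Even the lowest Taz-KD heart lay far above the WT hearts. The rise was 3.22-fold (log2 fold change 1.69, 95% interval 1.53 to 1.84, adjusted p = 1.07e-08, edgeR). The other 11 called subunits rose between 1.14-fold and 1.55-fold, with log2 fold changes up to 0.63 in Eif3a, so that no interval of theirs reached that of Eif3c.

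Muscle showed the same separation for Eif3c on a smaller scale. It was at 261, 237, 199, 214 and 240 CPM in Taz-KD muscles and at 139, 187, 164, 149 and 185 CPM in WT muscles, which did not overlap. The log2 fold change of 0.48 (unadjusted p = 0.00238) did not pass adjustment in edgeR (adjusted p = 0.311), but did in DESeq2 (adjusted p = 0.0353). Without A33 and A55 it was 0.36, with adjusted p = 0.299 in DESeq2 and 0.937 in edgeR. The effect in heart exceeded that in muscle by 1.15 on the log2 scale (adjusted p = 0.000273, edgeR).

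Other eIF3 subunits rose together in hearts. The core subunits Eif3a and Eif3b measured 286 ± 41.2 and 133 ± 11.3 CPM in Taz-KD hearts and 184 ± 12.5 and 89.3 ± 3.38 CPM in WT hearts (SD, n = 5 each). Eif3h and Eif3i were at 103 ± 5.32 and 53.7 ± 1.93 CPM in Taz-KD and at 69.8 ± 3.06 and 38.3 ± 1.36 CPM in WT hearts. The adjusted p was 0.000452 for Eif3a, 4.62e-05 for Eif3b, 1.56e-05 for Eif3h and 2.62e-05 for Eif3i (edgeR), and in each of the 4 every Taz-KD heart was above every WT heart. Eif3l and Eif3d stood out by the comparison with muscle. Eif3l was at 65.5 to 72.8 CPM in Taz-KD hearts and 45.6 to 51.3 CPM in WT hearts, yet at 56.7 to 58.6 CPM in Taz-KD muscles and 54.5 to 62.6 CPM in WT muscles, and its effects differed by 0.43 on the log2 scale (adjusted p = 0.00541, edgeR). Eif3d differed by 0.44 (adjusted p = 0.0415, edgeR), but 43.3% of its exon length overlaps the antisense gene Gm17638, and how strand was set in the counting is not given in the sources used here. Eif3m and the scarce Eif3j2 did not pass in hearts (adjusted p = 0.0573 and 0.631, edgeR).

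eIF1 and eIF1A select the start codon. Of the 5 genes grouped here, which include the related Eif1ad, 4 rose in hearts. Eif1, which keeps the scanning ribosome stringent, was at 377, 428, 403, 461 and 468 CPM in Taz-KD hearts and at 321, 299, 295, 283 and 251.6 CPM in WT hearts (log2 fold change 0.56, adjusted p = 0.000351, edgeR). Eif1a and the X-linked Eif1ax both encode eIF1A. Eif1a rose by 0.46 and Eif1ax by 0.18 on the log2 scale in hearts (adjusted p = 0.0116 and 0.0247, edgeR), and the call for Eif1ax was lost in 9 of 21 other analyses. Eif1ad, which encodes an eIF1A domain protein of ribosome assembly, rose by 0.50 (adjusted p = 0.000707, edgeR). Eif1b, the close copy of Eif1, was at 19.1 ± 0.776 CPM in Taz-KD hearts and 20.1 ± 1.53 CPM in WT hearts and did not pass.

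eIF4F split into factors that rose, 1 that fell and several that did not pass. Eif4e, the cap binding protein and the limiting part of the complex in many cells, had 69.4, 68.7, 79.4, 86.6 and 76.3 CPM in Taz-KD hearts, against 116, 99.6, 121, 105 and 99.4 CPM in WT hearts. Every Taz-KD heart was below every WT heart. Eif4e was the sole member called lower (log2 fold change -0.51, 95% interval -0.68 to -0.33, adjusted p = 0.000638, edgeR), and it kept its call in all 21 other analyses. In muscle it was at 103, 116, 101, 95.2 and 87.8 CPM in Taz-KD and at 82.0, 96.6, 94.7, 71.3 and 103 CPM in WT (log2 fold change 0.17, adjusted p = 0.479, edgeR). The 2 effects differed by -0.74 on the log2 scale (adjusted p = 0.0146, edgeR; 0.0257 without A33 and A55).

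No other cap binding protein was called in hearts. Eif4e2, a cap binding repressor also named 4EHP, was at 46.4 ± 4.45 CPM in Taz-KD hearts and 40.7 ± 2.06 CPM in WT hearts (log2 fold change 0.19, 95% interval 0.04 to 0.34, adjusted p = 0.0691, edgeR). Per kilobase of exon, Eif4e made up 61.9% to 71.2% of the Eif4e and Eif4e2 sum in Taz-KD hearts and 75.0% to 78.5% in WT hearts, which did not overlap. Eif4e3 had a log2 fold change of -0.07 (adjusted p = 0.505, edgeR), and the germ line form Eif4e1b had no counts in any heart.

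Of the helicase genes of eIF4F, Eif4a1 rose and Eif4a2 did not pass. Eif4a1 measured 160, 178, 128, 125 and 157 CPM in Taz-KD hearts and 93.9, 98.1, 111, 114 and 105 CPM in WT hearts (log2 fold change 0.52, adjusted p = 0.00241, edgeR). Eif4a2 measured 209 to 265 CPM in Taz-KD hearts and 241 to 299 CPM in WT hearts, which overlapped (log2 fold change -0.19, 95% interval -0.36 to -0.01, adjusted p = 0.111, edgeR). It was called lower only when the heart R2, alone or with R3, was left out. Per kilobase of exon, Eif4a1 was 40.4% to 48.6% of the pair in Taz-KD hearts and 27.9% to 36.8% in WT hearts. Both genes hold snoRNAs in their exon models, so counts from those could enter either. Other called members also share exon length with noncoding RNA models of the same strand, among them Eef1b2 (6.95%), Eef1a1 (4.33%), Eif5 (1.86%) and Eif4g2 (1.48%). Eif4a3, the helicase of the exon junction complex, had a log2 fold change of 0.02 (95% interval -0.15 to 0.19).

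Among the scaffolds, Eif4g2 (DAP5, which lacks the eIF4E site) rose to 1246 CPM on average in Taz-KD hearts, against 921 CPM in WT hearts (log2 fold change 0.44, adjusted p = 0.000395, edgeR). The main scaffold Eif4g1 was at 506 ± 27.7 CPM in Taz-KD hearts and 500 ± 40.9 CPM in WT hearts (95% interval of the log2 fold change -0.14 to 0.17). Eif4g3 had a log2 fold change of 0.18 (adjusted p = 0.0448, edgeR), overlapped between genotypes and lost its call in 15 of 21 other analyses, DESeq2 among them. The helicase helpers rose too: Eif4b to 267 ± 22.5 CPM, against 193 ± 14.0 CPM in WT hearts, and Eif4h to 137 ± 5.31 CPM, against 116 ± 4.45 CPM in WT hearts (adjusted p = 0.000597 and 0.00435, edgeR).

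None of the inhibitors that bind eIF4E among the members was called in hearts. Eif4ebp2, which mTORC1 releases from eIF4E, was at 41.5, 43.0, 41.8, 38.3 and 37.5 CPM in Taz-KD hearts and at 36.9, 40.6, 42.3, 41.3 and 38.5 CPM in WT hearts (log2 fold change 0.02, 95% interval -0.11 to 0.15). Muscles held more of it, with 358 ± 46.4 CPM in Taz-KD and 305 ± 108 CPM in WT (adjusted p = 0.607, edgeR), although the scales of the tissues were set separately. Eif4ebp3 stayed under 1 CPM in every library and shares 67.3% of its exon length with another gene model on the same strand. Eif4enif1, which carries eIF4E into the nucleus, had a log2 fold change of -0.11 (adjusted p = 0.245, edgeR). Eif4ebp1, the inhibitor left out of the membership, was higher in hearts by 1.17 on the log2 scale (adjusted p = 1.90e-06, edgeR).

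**Figure D4:**
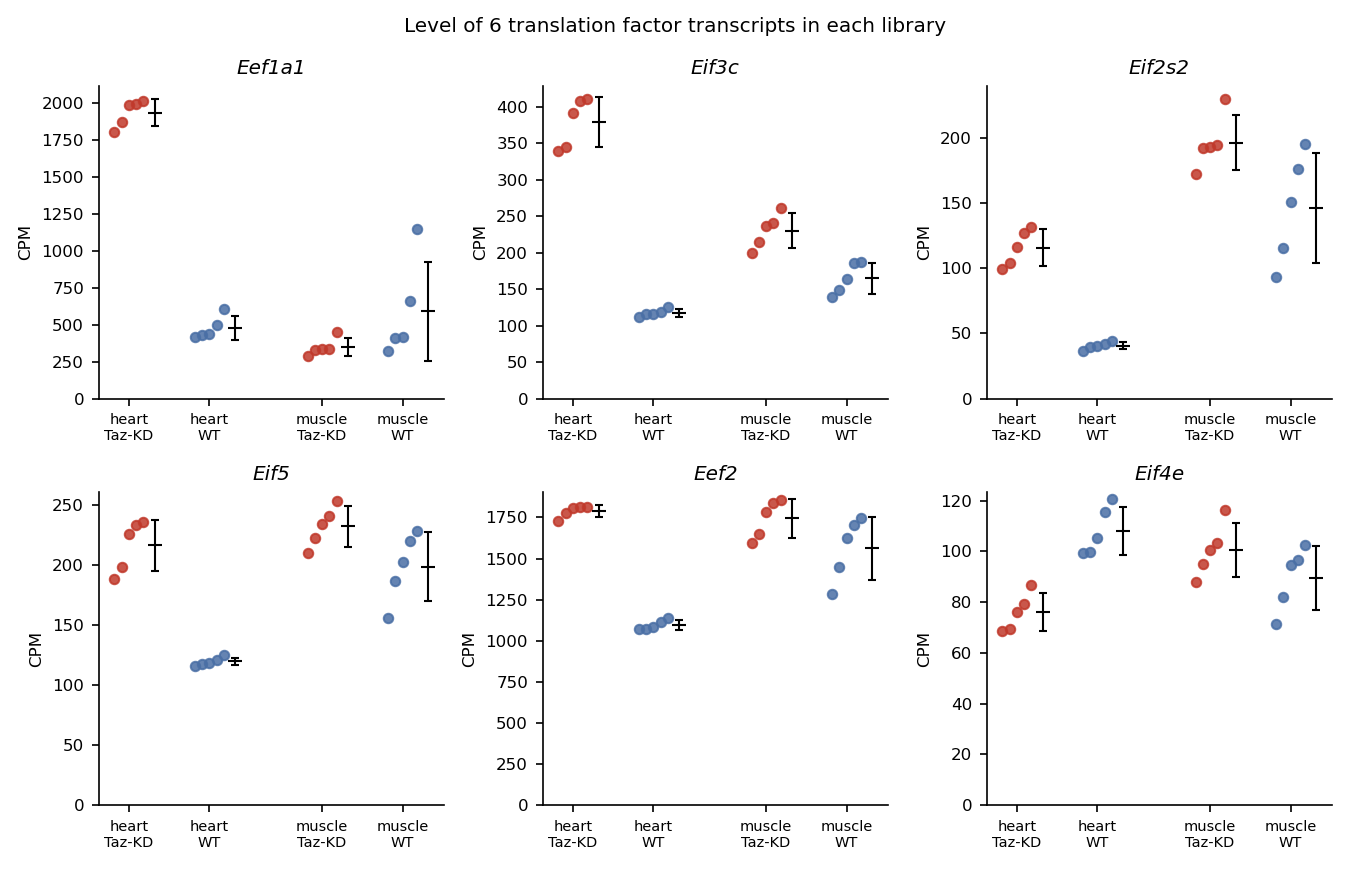
CPM (y axis, from 0) of 6 members in each library, with Taz-KD (red) left of WT (blue) in hearts and in muscles, each point 1 mouse and the bar the mean ± SD (n = 5). In hearts the genotypes do not overlap for any of the 6, and only Eif4e is lower in Taz-KD.

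Late initiation factors rose as well. Eif5, which triggers GTP hydrolysis by eIF2 at the start codon, was at 198, 236, 189, 226 and 234 CPM in Taz-KD hearts, against 125, 116, 119, 118 and 121 CPM in WT hearts. The lowest Taz-KD heart was above the highest WT heart (1.81-fold, 95% interval of the log2 fold change 0.70 to 1.01, adjusted p = 3.70e-06, edgeR). The effect was larger than in muscle by 0.57 on the log2 scale (adjusted p = 0.0436, edgeR). Eif6, which keeps the ribosomal subunits apart, was at 19.5 ± 1.80 CPM in Taz-KD hearts and 14.0 ± 1.62 CPM in WT hearts (log2 fold change 0.48, adjusted p = 0.00255, edgeR). Eif5b, the GTPase of subunit joining, did not pass (log2 fold change 0.05, 95% interval -0.12 to 0.22).

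Eif5a, whose protein carries hypusine and helps ribosomes through difficult peptide bonds, had 238, 261, 224, 211 and 227 CPM in Taz-KD hearts and 141, 150, 155, 170 and 141 CPM in WT hearts. There was no overlap (log2 fold change 0.62, adjusted p = 7.70e-05, edgeR). Its copy Eif5a2 contributed little, with 98.7% to 99.0% of the summed level per kilobase coming from Eif5a in Taz-KD hearts and 98.2% to 98.8% in WT hearts. Dhps, the enzyme that starts hypusine synthesis, was also higher (log2 fold change 0.51, adjusted p = 0.000454, edgeR).

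The largest rise of all members was that of Eef1a1, and it changed which eEF1A gene led in the heart. Eef1a1 measured 2016, 1993, 1984, 1873 and 1803 CPM in Taz-KD hearts, against 417, 498, 428, 435 and 608 CPM in WT hearts. The genotypes were far apart, with R3 the highest of the WT hearts. The rise was 4.05-fold (log2 fold change 2.02, 95% interval 1.79 to 2.25, adjusted p = 6.25e-08, edgeR). Eef1a2, the muscle form, was at 895, 1037, 885, 898 and 1008 CPM in Taz-KD hearts and at 841, 877, 961, 996 and 772 CPM in WT hearts, which overlapped (log2 fold change 0.09, 95% interval -0.09 to 0.27, adjusted p = 0.496, edgeR).

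Per kilobase of exon, Eef1a1 gave 59.9% to 65.3% of the Eef1a1 and Eef1a2 sum in Taz-KD hearts and 26.7% to 39.7% in WT hearts. It thus ranked first among all members in Taz-KD hearts (776 ± 36.8 CPM per kb, SD, n = 5), where Eef2 (538 ± 11.6) and Eef1a2 (453 ± 34.6) followed. In WT hearts the order was Eef1a2 (427 ± 43.5), Eef2 (330 ± 8.74) and Eef1a1 (191 ± 32.0 CPM per kb). Eef1a1 and Eef1a2 are close copies, and the handling of multimapping reads is not given in the sources used here.

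Eef1a1 is the form of most non-muscle cells, so the markers of such cells stand beside it. In hearts, 3 of 5 endothelial and 2 of 4 red cell markers were lower in Taz-KD, and none of the 5 fibroblast, 5 macrophage, 4 smooth muscle, 3 tested adipocyte or 3 tested Schwann cell markers was called. Summed endothelial markers were at 608 to 753 CPM in Taz-KD and 730 to 904 CPM in WT hearts, and fibroblast markers at 586 to 1065 CPM in Taz-KD and 697 to 1627 CPM in WT hearts. Skeletal fibre markers ran from 1561 to 2412 CPM in Taz-KD and from 1007 to 1435 CPM in WT hearts, with Myh4 at 0 in every heart, and cardiomyocyte markers ran from 37756 to 51736 CPM in Taz-KD and from 38426 to 52282 CPM in WT hearts. The skeletal fibre sum was set apart by 1 gene, Acta1 (533 to 1493 CPM in Taz-KD, 35.5 to 384 CPM in WT hearts), the only 1 of 3 tested markers of that list that was called, while Ckm overlapped (919 to 1191 CPM in Taz-KD, 888 to 1164 CPM in WT hearts). The part of cell composition in the heart results was not tested.

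In muscle, Eef1a1 was at 336, 287, 328, 335 and 449 CPM in Taz-KD and at 1147, 416, 407, 663 and 320 CPM in WT, where the high values belonged to A33 and A55. The log2 fold change was -0.77 (unadjusted p = 0.0366, adjusted p = 0.322, edgeR) and -0.14 without both (adjusted p = 0.959, edgeR). Eef1a2 had its 2 lowest muscle values in the same libraries (1194 CPM in A33 and 1357 CPM in A55, against 1860 to 2296 CPM in Taz-KD). Schwann cell markers summed to 1181 CPM in A55 and Myh4, the myosin of fast fibres, to 6403 CPM, against 116 to 629 CPM and 41463 to 86312 CPM in Taz-KD muscles. The effect of the knockdown on Eef1a1 differed between heart and muscle by 2.69 on the log2 scale (adjusted p = 6.14e-05, edgeR) and by 2.14 without A33 and A55 (adjusted p = 4.45e-07, edgeR).

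The partners that reload eEF1A with GTP also rose in hearts. Eef1b2 was at 93.6, 94.5, 90.0, 121 and 107 CPM in Taz-KD hearts and at 62.8, 60.1, 59.6, 61.1 and 59.7 CPM in WT hearts (log2 fold change 0.74, adjusted p = 2.76e-05, edgeR), more than in muscle by 0.55 on the log2 scale (adjusted p = 0.0250, edgeR). The exchange subunit Eef1d and the scaffold Eef1g rose by 0.44 and 0.40 (adjusted p = 0.000439 and 0.000757, edgeR). The tested eEF1A methyltransferases Eef1akmt1 and Eef1akmt2 did not pass (adjusted p = 0.988 and 0.552, edgeR), and Eef1akmt3 was below the count filter in both tissues. Eef2kmt, which methylates eEF2, had no overlap between genotypes but missed the threshold (log2 fold change 0.21, adjusted p = 0.0706, edgeR).

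Eef2, the translocase, rose in hearts while its inhibitory kinase did not pass the test. Eef2 had 1777, 1815, 1726, 1810 and 1815 CPM in Taz-KD hearts, against 1136, 1116, 1070, 1071 and 1085 CPM in WT hearts (1.63-fold, log2 fold change 0.71, adjusted p = 3.54e-06, edgeR). Spread within each genotype was narrow beside the gap between them. Eef2k was at 62.1, 58.2, 70.2, 64.7 and 67.2 CPM in Taz-KD hearts and at 63.4, 63.0, 52.8, 60.3 and 61.9 CPM in WT hearts (log2 fold change 0.10, 95% interval -0.05 to 0.24, adjusted p = 0.335, edgeR). In muscle Eef2 was at 1592 to 1859 CPM in Taz-KD and 1283 to 1746 CPM in WT (adjusted p = 0.545, edgeR), and the difference between the tissues, 0.49 on the log2 scale, did not pass (adjusted p = 0.0976, edgeR; 10 of 29 other analyses called it).

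Promoter sequences were compared because so many members rose together. RefSeq windows of 300 bases on GRCm38.p6, from 250 before to 50 after an annotated start, were found by symbol for 46 of the 61 members, with 60 starts. TGATGNAA, the core of the composite site through which ATF4 acts, occurred on either strand in 3.33% of the member windows, in Eef2k and Eif2s3x, compared with 3.97% of all 32851 windows. Neither gene was called in hearts, where sex was not in the fit. The E-box CACGTG, the site of the MYC and MITF families, which reads the same on both strands, occurred in 23.3% of the member windows and 7.15% of all windows. It was found in 12 members, among them Eef2, Eif4e and Eif5a, but also Eif4g1, Eif1b, Eef2k and Eif5a2, which were not called in hearts. The TATA core TATAA occurred in 11.7% of member windows and 24.9% of all windows, 7 members in all. These matches are a description of the letters and not of binding. The set of all windows was not matched to the members, and the part of any motif in the heart results was not tested.

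The windows of the 3 members with the largest rises, of Eef2 and of the fallen Eif4e are shown from 120 bases before to 30 bases after the start, 5′ to 3′ in the direction of the gene, with CACGTG and TATAA in capitals.
Eef1a1 (chr9:78481695-78481844, minus strand): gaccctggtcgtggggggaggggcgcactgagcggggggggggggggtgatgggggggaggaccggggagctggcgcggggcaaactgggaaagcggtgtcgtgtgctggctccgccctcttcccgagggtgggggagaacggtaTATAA
Eif3c (chr7:126566337-126566486, minus strand): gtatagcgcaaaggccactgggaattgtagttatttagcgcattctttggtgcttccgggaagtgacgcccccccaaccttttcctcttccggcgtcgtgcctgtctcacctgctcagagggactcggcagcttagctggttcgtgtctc
Eif2s2 (chr2:154892877-154893026, minus strand): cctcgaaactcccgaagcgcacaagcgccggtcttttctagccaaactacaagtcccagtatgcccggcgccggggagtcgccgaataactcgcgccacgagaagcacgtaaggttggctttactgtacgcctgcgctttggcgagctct
Eef2 (chr10:81176511-81176660, plus strand): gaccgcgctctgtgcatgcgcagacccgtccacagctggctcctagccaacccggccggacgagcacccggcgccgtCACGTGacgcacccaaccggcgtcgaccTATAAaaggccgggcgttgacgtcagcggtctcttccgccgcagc
Eif4e (chr3:138527148-138527297, plus strand): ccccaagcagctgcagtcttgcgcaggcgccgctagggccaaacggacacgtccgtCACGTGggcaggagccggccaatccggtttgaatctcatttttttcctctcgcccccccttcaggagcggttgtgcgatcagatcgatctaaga
Eef1a1 has its TATAA after the annotated start, Eef2 holds an E-box and TATAA before it, and Eif3c and Eif2s2 hold none of the 3 motifs. Eif4e has 2 annotated starts, and the window shown is that of the downstream one, which holds an E-box. CACGTG near a start was thus present in both Eef2 and Eif4e, and its part in either change was not tested.

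The machinery around these factors was followed in lists of related genes. Among all genes tested in hearts, 14.4% were called higher and 10.3% lower. Of 8 termination, recycling and rescue factors, 6 were higher in Taz-KD hearts, led by the release factor Etf1 (log2 fold change 0.75) and the rescue GTPase Hbs1l (0.58), with adjusted p = 1.27e-05 and 2.03e-05 (edgeR). The recycling ATPase Abce1 and the reinitiation factor Denr were up by 0.50 and 0.41. Among poly(A) binding proteins and partners 3 of 8 were higher, Pabpc4 most (0.87, adjusted p = 1.93e-05, edgeR), before Pabpc1 (0.34) and Larp1 (0.31). The call for Larp1 (adjusted p = 0.0398, edgeR) was lost in 10 of 21 other analyses. Of 12 genes of mTORC1 and MNK control 5 were higher, with Sesn2, a brake of mTORC1, at 27.7 to 45.4 CPM in Taz-KD and 4.86 to 6.18 CPM in WT hearts, and Mknk1, a kinase of eIF4E, up by 0.88 (adjusted p = 1.78e-05, edgeR). The ribosomal protein Rps6 was up by 0.49. Of 10 genes of hypusine, diphthamide and selenocysteine steps 4 were higher, namely Dhps, Dph5 (0.62), Dph3 (0.30) and Eefsec (0.42). Calls were lost in 2 of 21 other analyses for Pabpc1 and Dph3 and in 1 for Denr and Eefsec.

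Of 6 eIF2 kinases and phosphatase subunits 2 were higher, the phosphatase subunit Ppp1r15a (GADD34; log2 fold change 1.01, adjusted p = 0.000115, edgeR) and the kinase Eif2ak1 (0.25, adjusted p = 0.0113, edgeR). Among 10 mitochondrial translation factors Mtif3 was higher and Tufm, the mitochondrial counterpart of eEF1A, was lower (85.0 to 102 CPM in Taz-KD hearts, 117 to 139 CPM in WT hearts; log2 fold change -0.45, adjusted p = 0.000509, edgeR). With 1 called each way, these 10 lay near the shares of all tested genes (14.4% higher and 10.3% lower). The calls for Mtif3 and Eif2ak1 were lost in 3 and 2 of 21 other analyses. All 6 stress genes used for orientation were higher, with log2 fold changes of 2.29 in Atf4, 2.03 in Ddit3, 3.04 in Chac1, 4.86 in Trib3, 6.48 in Asns and 0.66 in Eef1e1, whose values overlapped (5.93 to 10.1 CPM in Taz-KD, 3.86 to 6.14 CPM in WT hearts). In muscle 0 genes of any of these lists were called, and Trib3 was at 3.34 to 13.9 CPM in Taz-KD and 1.24 to 2.85 CPM in WT muscles (adjusted p = 0.311 in edgeR, 3.21e-05 in DESeq2). Of the 6 stress genes, 4 had an unadjusted p under 0.05 in muscle (edgeR), against 14.9% of all tested genes. In 3 of the 6 every Taz-KD muscle was above every WT muscle, against 1.06% of all tested genes. Atf4 was among these 3 (182 to 215 CPM in Taz-KD, 132 to 175 CPM in WT muscles).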

How the data were processed

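Total RNA was taken from frozen heart and femur muscle, depleted of ribosomal RNA and made into strand-specific libraries that were read as paired ends. The authors aligned the reads to GRCm38 with STAR and deposited unnormalized counts per gene from featureCounts 1.6.4, and their own test was DESeq2 2.11.40.6. Strand setting, multimapping reads and annotation release are details not given in the sources used here. For naming, gene symbols, types and exon lengths came from GENCODE M21 on the same build, and promoters from RefSeq on GRCm38.p6.

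Here each tissue was fitted in R 4.3.3 with edgeR 4.0.16: filterByExpr by genotype, TMM factors, a robust quasi-likelihood fit and Benjamini-Hochberg adjustment at 0.05 over all tested genes. Standard errors and 95% intervals were derived from the F statistic. The difference between tissues was the interaction in one fit of all 20 libraries. CPM were scaled by TMM within each tissue, and levels of different genes were compared only per kilobase of merged exons. All 20 deposited sample columns were used, grouped by the genotype and tissue in the labels. Each label names a separate animal, so p-values measure the spread between these mice.

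Named genes were, per complex and tissue, up to 4 called members with the smallest adjusted p, a set of core factors given whether called or not, up to 10 members that led the tissue comparison, up to 4 called genes per related list, and Taz. The rule did not name Atf4, Acta1, Ckm, Xist or Eef1e1. Nor did it name Eif1b, Eif3a, Eif3j2, Eif3m, Eif4h, Eif4a2, Eif4a3, Eif4e1b, Eif4e2, Eif4e3, Eif4enif1, Eif4g1, Eif4g3, Eif5a2, Eif5b and the eEF methyltransferases. All of these are given after their values were seen. The members, lists and complexes were chosen with earlier results of these data known. Alternatives were median-ratio and upper-quartile factors, library sizes only, DESeq2 1.42.0, limma-voom with limma 3.58.1, no filter, at least 10 counts in every library, no robust fit, one fit of all 20 libraries, a fit leaving out both R2 and R3 (hearts with another style of label) and fits without each library. Fits without the muscles A33 and A55 and without the hearts R1793, R1797 and R3 were added after seeing the data.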

Additional observations from a re-analysis of the deposited data

Results flagged for a closer look

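The knockdown effect differed between heart and muscle in the edgeR interaction test for 10 members. On the log2 scale, heart minus muscle, the differences were 2.69 for Eef1a1, 1.15 for Eif3c, 1.03 for Eif2s2, 0.59 for Eif4a1, 0.57 for Eif1a, 0.57 for Eif5, 0.55 for Eef1b2, 0.44 for Eif3d, 0.43 for Eif3l and -0.74 for Eif4e.

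Single libraries lay far from the other 4 of their group in 6 of the 152 groups of 5 examined, where chance alone flags about 1 group in 20. They were Eef1g at 143 CPM in the WT heart R1800, Eif2b3 at 11.6 CPM in the same heart, Eef2k at 52.8 CPM in the WT heart R1795, Eif2d at 24.9 CPM in the WT heart R1791, Eif1a at 17.4 CPM in the WT muscle A33 and Taz at 15.2 CPM in the Taz-KD muscle A58.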

How the results depend on the processing

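In hearts the number of members called stayed between 28 and 38 over all alternatives, 28 being the fit of all 20 libraries. No alternative reversed the direction of a called gene among those named. The members called lower in hearts were 2 without the hearts R2 and R3, since Eif4a2 joined Eif4e, and 1 to 2 when single libraries were left out. In muscle 1 member, called higher, passed with DESeq2 and with one fit of all 20 libraries, and 0 in the other analyses. DESeq2 called 36 genes higher and 124 lower in muscle, where edgeR called 2 and 1. The difference of tissues depended most on the setting. It was called for 24 members (23 higher) with library sizes only, which also moved the median of all genes to 0.21 in this test and to -0.16 in muscle. That setting called 851 genes higher and 216 lower (79.8% higher), against 632 and 320 (66.4% higher) with TMM. With at least 10 counts in every library, 14 members were higher, and DESeq2 called 2 lower. Without the muscles A33 and A55 it was called for 18 members, 17 of them higher. Without each library in turn, 5 to 15 members were called, 4 to 14 higher and 1 to 2 lower. In hearts, upper-quartile factors gave 2445 genes higher and 2511 lower (49.3% higher, against 58.4% with TMM). No paired analysis was possible because the libraries of the groups share no replicate numbers. Depth limited only the scarce members, Eef1akmt3 and Eif4e1b in both tissues.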
